A study of Caenorhabditis elegans with 2 samples.

Results

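The regions described here are the autosomal promoter peaks of the forkhead transcription factor FKH-2, mapped by chromatin immunoprecipitation and sequencing (ChIP-seq) in L3 larvae of Caenorhabditis elegans. They were chosen from the list of both replicates pooled, in 3 steps. The 2000 peaks with the highest score were taken, those on chromosome X were left out, and a peak was kept where its centre lay within 500 bp of an annotated start of a protein-coding transcript. This gave 570 of the 30000 pooled peaks, or 36.5% of the 1563 autosomal peaks among the 2000 strongest (95% interval 34.1 to 38.9). The score is the signal value written by the authors' peak caller, on a scale that the sources used here do not give, so it served only to rank peaks within a list. Score and distance chose these peaks and are therefore described without a test.

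The study held 1 group of 2 biological replicates, whole animals of mixed sex from strain OP185. All of them carry the unc-119(ed3) mutation on chromosome III and wgIs185, the insertion that provides eGFP-fkh-2, FKH-2 joined to enhanced green fluorescent protein. The antibody is labelled fkh-2, fragments were 150 to 350 in size, and the labels do not state the cells in which the tagged protein is made. No control library and no second condition were analysed here, so the only comparison between samples is that of the replicates. The authors' lists held 30000 peaks for replicate 1 and 24744 for replicate 2, and a set of 203 peaks kept by irreproducible discovery rate (IDR), a method that compares the ranks of peaks between replicates. Ranks could still lie far apart in that set, as those of tbc-14 and gei-4 given further on, and 62 of its 63 peaks among those described here overlapped a peak of each replicate. Among the peaks described here, the IDR set held every one down to pooled rank 202 and none from rank 204 on. Its 63 peaks here were thus those of highest pooled score. The peak of sor-1, at rank 67 in replicate 1, 6 in replicate 2 and 367 in the pooled list, was outside it. The lists carry no read numbers, and depth was therefore unknown. Intervals are Wilson intervals and, like the p-values, describe counts of peaks in these lists, since peaks are not animals.

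A promoter is the stretch at and upstream of the point where transcription of a gene begins. Many C. elegans transcripts are trans-spliced: a short leader RNA replaces their first stretch at a splice acceptor that ends in AG, commonly TTTCAG. The annotated start of such a gene is then the splice site, and transcription begins farther upstream. Head-to-head genes, in which a minus-strand and a plus-strand gene start close together and point away from each other, share the DNA between them as a divergent promoter. Forkhead proteins bind DNA with a winged-helix domain, and their usual core sequence is ATAAACA or GTAAACA. FKH-2 is known for a role in shaping the cilia of the AWB olfactory neurons.

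Some of these promoters carried short sequences that were more frequent at the centres than beside them. The following windows span 50 bp to either side of the peak centre, written 5′ to 3′ on the strand of the nearest gene, from the RefSeq sequence of ce11. They belong to the 5 highest-scoring peaks that held one of these motifs and that overlapped no annotated UTR. Only peaks on autosomes II to V were eligible. Capitals mark GAGAGA (or TCTCTC on the other strand) and TGCGTCTC.
lin-9: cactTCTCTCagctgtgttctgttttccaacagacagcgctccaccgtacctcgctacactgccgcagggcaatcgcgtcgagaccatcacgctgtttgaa
Y97E10AR.1: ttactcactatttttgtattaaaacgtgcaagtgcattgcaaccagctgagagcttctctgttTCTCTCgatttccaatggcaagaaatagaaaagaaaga
dnj-13: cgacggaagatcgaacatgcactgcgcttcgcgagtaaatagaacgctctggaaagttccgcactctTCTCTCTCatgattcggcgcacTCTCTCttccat
tbc-14: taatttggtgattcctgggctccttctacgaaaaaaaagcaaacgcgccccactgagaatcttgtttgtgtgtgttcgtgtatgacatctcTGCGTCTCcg
B0348.10: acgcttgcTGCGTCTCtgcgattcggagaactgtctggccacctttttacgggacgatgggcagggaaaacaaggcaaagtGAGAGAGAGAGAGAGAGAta

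The lin-9 window lies at chrIII:8904255-8904355 (minus strand), that of Y97E10AR.1 at chrV:8001035-8001135 (plus), and that of dnj-13 at chrII:11545464-11545564 (plus). The tbc-14 window lies at chrII:13447858-13447958 (minus) and that of B0348.10 at chrV:8819-8919 (minus). The lin-9 and Y97E10AR.1 windows each hold a single short block of capitals read as TCTCTC, whereas dnj-13 has them in separate blocks and B0348.10 has a longer GAGA run beside TGCGTCTC. The tbc-14 window has TGCGTCTC alone. No window of the 5 holds the forkhead core.

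The 570 peaks had 555 different nearest genes, which is 3.22% of the 17242 autosomal protein-coding genes. With every gene counted that had a start within 500 bp of a centre, 657 genes were reached, or 3.81%. The nearest gene of 181 was known only by its sequence name, and 81 belonged to the 23 lists of named gene families described further on. No peak had a tie between genes for the nearest start, no peaks overlapped each other, and 15 lay within 1000 bp of the next one.

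The strongest autosomal promoter peak belonged to cdc-48.1 (WBGene00007352), which encodes an AAA ATPase that extracts ubiquitinated proteins. It lay at chromosome II, 10563418 to 10563707, in intergenic sequence with its centre 156 bp upstream of the start. Its score was 48.3 in the pooled list, 28.1 in replicate 1 and 18.4 in replicate 2, where it ranked 28 and 12. lin-9 (WBGene00002998), which encodes a subunit of the DREAM repressor complex, had a peak 174 bp upstream at chromosome III, 8904160 to 8904449, that scored 43.8 in the pooled list, 25.4 in replicate 1 (rank 37) and 16.2 in replicate 2 (rank 24). Both promoters ranked high in each replicate, and not all that follow did so.

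tasp-1 (WBGene00010480), the homologue of the protease taspase, had a peak 44 bp upstream at chromosome III, 10759118 to 10759407, that scored 43.9 and ranked 18 in replicate 1 and 519 in replicate 2. The peak of ints-4 (WBGene00012234), a gene of the Integrator complex, went the other way, with rank 1277 in replicate 1 (score 9.56) and rank 4 in replicate 2 (24.5). It lay in the 5′ UTR, 10 bp downstream of the start, at chromosome I, 13663217 to 13663506, with a pooled score of 41.4. Scores of different lists are not on a common scale, so the ranks carry the comparison.

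Other leading promoters had nearest genes of varied function. rpl-3 (WBGene00004414), which encodes a protein of the large ribosomal subunit, had a peak 283 bp upstream with ranks of 23 in replicate 1 and 54 in replicate 2. Y97E10AR.1 (WBGene00022396), with a score of 41.0, ranked 69 in replicate 1 and 198 in replicate 2, and Y22D7AL.10 (WBGene00021248), with 35.1, ranked 114 and 59 in the same order. dnj-13 (WBGene00001031), which encodes a DnaJ co-chaperone of Hsp70, had a peak 187 bp upstream of its start (score 33.6). This peak lay before the dnj-13 gene, in an intron of another gene, and ranked 65 in replicate 1 and 134 in replicate 2. tbc-14 (WBGene00008444), of the TBC-domain family of Rab GTPase-activating proteins, ranked 20 in replicate 1 and 7828 in replicate 2, the widest gap among the 12 highest-scoring peaks with a counterpart in each replicate.

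In 15 genes, 2 peaks each were counted, and no gene had more. drap-1 (WBGene00009584) had a peak in an intron, 121 bp from the start downstream of it, with a score of 33.8, and a second peak 165 bp upstream of another start, with a score of 11.9. gei-4 (WBGene00001561) had peaks with scores of 27.5 and 18.5, 128 and 269 bp upstream of different starts. The first ranked 50 in replicate 1 and 20626 in replicate 2, the second 2546 and 212 in the same order. T26A8.4 (WBGene00020827) had 26.2 and 19.5, at 437 and 65 bp upstream. cdk-7 (WBGene00000408), the kinase that activates cell cycle kinases and serves in the transcription factor TFIIH, had 23.0 at 118 bp upstream and 14.7 at 290 bp downstream of a start.

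Most peaks had their centre upstream of the nearest annotated start. A gene can have several such starts, so a centre upstream of one can lie inside the gene, as at lin-28 and drap-1. The centre was upstream of the nearest start in 413 of 570 (72.5%, 68.6 to 76.0), and at or downstream of it in 157. Among the 6106 autosomal promoter peaks of lower score in the same list, 48.6% were upstream (47.3 to 49.8; odds ratio 2.78, two-sided Fisher's exact p = 1.76e-28, adjusted p = 7.05e-28 over 4 tests). Of all autosomal bases within 500 bp of a start, 47.8% were upstream. The pooled list holds peaks together with background, and 19.4% of the 6106 lower peaks overlapped a peak of neither replicate. Here and below, the weaker peaks can thus include background. The 129 promoter peaks on chromosome X among the 2000 strongest, a comparison added after the values were seen, had 76.7% upstream (68.7 to 83.2), which did not differ past the threshold from the autosomal share (odds ratio 0.797, Fisher's exact adjusted p = 0.378).

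The median distance from centre to start was 190 bp (95% interval 174 to 205, quartiles 91 and 309.75). The window of 500 bp limits these values. Weaker autosomal promoter peaks had a median of 219 bp (214 to 225) and X promoter peaks 198 bp (158 to 279). Of the strong autosomal peaks, 28.2% lay within 100 bp of the start and 63.7% within 250 bp. Upstream centres had a median of 193 bp (n = 413) and downstream centres 177 bp (n = 157). In steps of 100 bp from 500 bp upstream to the start there were 39, 68, 92, 112 and 102 centres, and in the same steps beyond the start 58, 26, 28, 21 and 24. The distribution therefore reached its highest bin between 200 and 100 bp upstream and dropped beyond the first 100 bp of the transcript, whereas the weaker peaks were spread over both sides, with 7.11% to 11.9% in every bin.

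**Figure D1:**
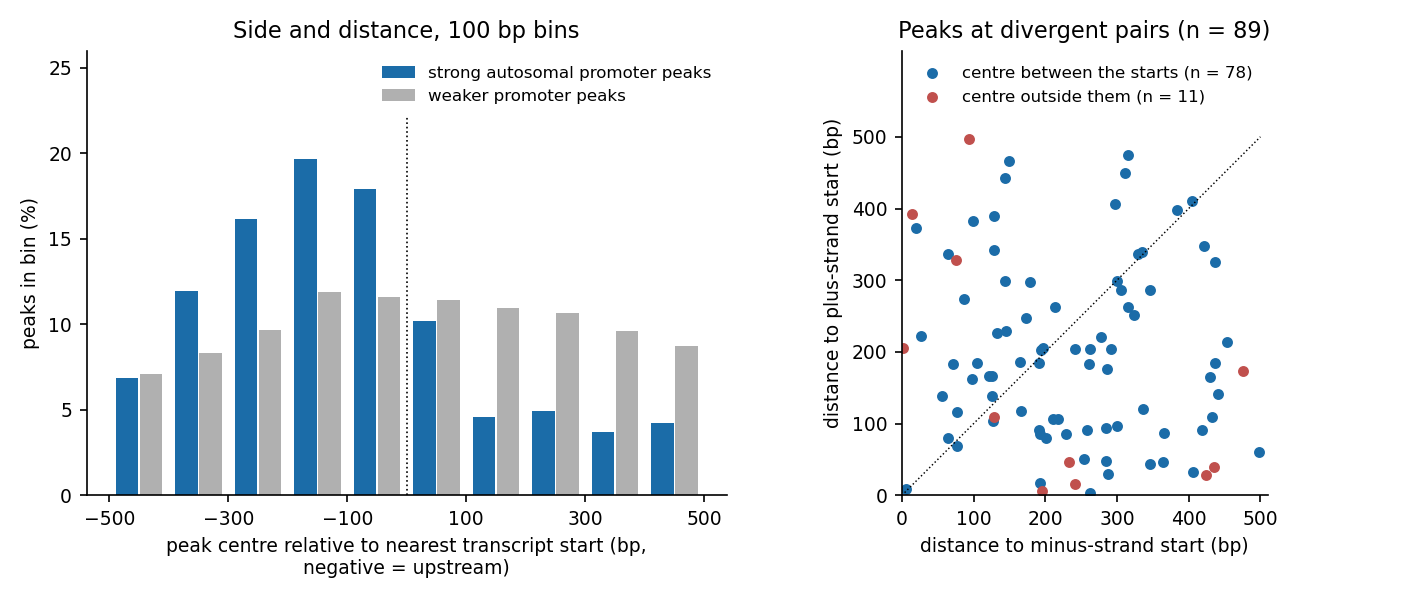
Left, share of peaks (%) by the position of their centre relative to the nearest protein-coding transcript start (bp, negative is upstream) in 100 bp bins, for the 570 strong autosomal promoter peaks and the 6106 weaker ones. The strong peaks gather upstream, with 112 of 570 in the bin from 200 to 100 bp upstream, and the weaker peaks spread over both sides. Right, distance (bp) from the centre to the minus-strand and to the plus-strand start for the 89 peaks at divergent pairs; the dotted line marks equal distance, and 78 centres lie between the starts.

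At the edge of the rule, the lowest-scoring peaks kept were those of nlp-48, at 11.5972 and rank 1995, and T22C8.3, at 11.5938 and rank 1999. The next promoter peaks, of ctsa-1.2 at 11.5595 and slc-28.1 at 11.5565, were left out. By distance, pkg-2 at 499 bp and asd-1 at 500 bp were kept, and Y110A7A.7 and gldi-8, both at 502 bp, were not. All 570 peaks were 290 bp wide. The lowest score was 11.6, the median 14.2 and the highest 48.3, against a median of 6.19 over the whole pooled list. Their deposited −log10 q-values ran from 2.73 to 3.37, and 348 peaks shared the highest value.

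The kind of annotated start varied with the position of the peak. Nearest starts preceded by AG, as a trans-splice acceptor is, made up 35.4% of the 565 different starts at the strong peaks (31.6 to 39.4), against 30.1% at weaker promoter peaks and 26.5% of all 25199 autosomal starts. The full acceptor TTTCAG preceded 16.1%, against 13.3% and 11.6%. Starts that coincide with the first base of the start codon, so that no 5′ UTR is annotated, made up 16.5% (13.6 to 19.7), against 29.4% at weaker promoter peaks and 30.4% of all starts. These shares were not tested. Counted over peaks, those at starts preceded by AG and not at a start codon (n = 183) had a median distance of 210 bp and 81.4% of centres upstream. Those at start-codon starts (n = 94) had 249.5 bp and 52.1% upstream, and the remaining peaks (n = 293) had 144 bp and 73.4%.

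Centres lay in intergenic sequence in 316 cases (55.4%, 51.3 to 59.5), in introns in 123 (21.6%), in coding sequence in 77 (13.5%), in 5′ UTRs in 46 (8.07%) and in 3′ UTRs in 8 (1.40%). These classes refer to any protein-coding gene, not only the nearest one. Among weaker promoter peaks, 32.8% were intergenic and 30.7% coding. Counts over chromosomes I to V were 120, 108, 105, 105 and 132. Chromosome V held 23.2% of the peaks and 29.0% of autosomal protein-coding genes, and chromosome I held 21.1% of the peaks and 16.7% of the genes. When each chromosome was divided into 3 equal stretches, the central one held 46.7% of the peaks (42.6 to 50.8), against 38.8% of weaker promoter peaks and 38.1% of autosomal genes. Noncoding genes were also near some centres: within 200 bp lay a tRNA gene at 7 peaks (1.23%, against 1.21% of the 993 other strong autosomal peaks), a piRNA gene at 9 (1.58%, against 1.31%) and a snoRNA gene at 6 (1.05%, against 2.42%). A snRNA gene lay there at 2 (0.351%, against 1.01%), a miRNA gene at 2 (0.351%, against 0.302%) and a gene of the unclassified ncRNA type at 55 (9.65%, against 10.98%), and none of these shares was tested.

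Divergent promoters were more frequent than among weaker peaks, which can include background. Starts of a head-to-head pair both lay within 500 bp of the centre in 89 of 570 peaks (15.6%, 12.9 to 18.8). Among weaker autosomal promoter peaks the share was 5.93% (5.36 to 6.55; odds ratio 2.94, two-sided Fisher's exact p = 8.00e-15, adjusted p = 1.60e-14), and 4.57% of the autosomal bases within 500 bp of a start met the same criterion. Among X promoter peaks it was 4 of 129 (3.10%, 1.21 to 7.70). The odds ratio of the autosomal share to this one was 5.78 (Fisher's exact adjusted p = 5.38e-05), a comparison added after the values were seen. The share of X bases that meet the criterion was not computed. How often genes on X stand head to head is therefore not accounted for in this comparison. The autosomal share was lower with replicate 2: among autosomal promoter peaks of the 2000 strongest of replicate 2 alone it was 8.66%, against 6.14% of that replicate's weaker promoter peaks (odds ratio 1.45, unadjusted Fisher's exact p = 0.0399). With replicate 1 alone the odds ratio was 2.99.

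The 89 peaks stood at 89 different pairs with 178 genes, 4.91% of the 1814 autosomal head-to-head pairs whose starts lie within 1000 bp of each other. The gap between the starts had a median of 396 bp (358 to 445) and ran from 15 to 814 bp, against a median of 477 bp for all such pairs and 317.5 bp for the divergent pairs of weaker peaks. Both starts had to lie within 500 bp of a centre, which favours narrow gaps. The difference from the median of all pairs is therefore not read as a result. The centre lay between the starts in 78 peaks and outside them in 11. The median distance was 109 bp to the nearer start and 286 bp to the farther one, and in 22 peaks both distances differed by at most 50 bp. A nearest gene is therefore a weak guide at these peaks, and both genes of a pair are given. A further 12 peaks had several genes in reach on the same strand, among them the pairs klp-11 and F20C5.11, and icln-1 and znf-706.

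The strongest divergent promoter joined rpl-15 (WBGene00004427), a large-subunit ribosomal protein gene on the minus strand, to K11H12.8 (WBGene00019664). The starts are 814 bp apart, the widest gap of the 89, and the centre was almost in the middle, 404 and 410 bp from them. The score was 42.002, with rank 15 in replicate 1 and 2979 in replicate 2. The peak between rpl-20 (WBGene00004432), another gene of the large subunit, and Y17G9B.5 (WBGene00021202) scored 38.6 and ranked 41 in replicate 1 and 19 in replicate 2. Its centre was 286 bp from rpl-20 and 176 bp from Y17G9B.5.

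The next pairs by score held genes of varied function. lin-53 (WBGene00003036), which encodes a histone-binding protein related to RbAp48, and nra-2 (WBGene00011488), the homologue of nicalin, shared a peak 263 and 204 bp from their starts. It scored 31.8 and ranked 77 in replicate 1 and 99 in replicate 2. hsp-110 (WBGene00016250), a chaperone gene, and rpn-3 (WBGene00004460), which encodes a subunit of the proteasome's regulatory particle, shared a peak at chromosome III, 8447025 to 8447314, that scored 31.3 and ranked 139 in replicate 1 and 71 in replicate 2. rpl-12 (WBGene00004424) and lin-54 (WBGene00003037), which encodes the DNA-binding subunit of DREAM, shared one 20 bp from rpl-12 and 373 bp from lin-54, with a score of 31.25 and ranks of 117 in replicate 1 and 42 in replicate 2. malt-1 (WBGene00017702), a paracaspase gene, and the ONECUT homeobox gene ceh-38 (WBGene00000459) shared a peak in an annotated 5′ UTR, 16 bp downstream of the ceh-38 start, that scored 28.0 and ranked 2314 in replicate 1 and 16 in replicate 2. Of these 6 pairs, those of rpl-15 and ceh-38 had ranks far apart between replicates, and the other 4 stood within the 139 highest of each replicate.

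Whole divergent promoters can be read where the starts are close together. The stretches below run from the base after the minus-strand start to the base before the plus-strand start, on the plus strand of the same sequence, and capitals mark the 6 bases before each start. They come from the 3 highest-scoring pairs with the centre between the starts, a gap of 100 to 300 bp, no annotated UTR in the gap and a place on one of the same autosomes, chosen after values were seen.
dnsn-1/C24H12.4: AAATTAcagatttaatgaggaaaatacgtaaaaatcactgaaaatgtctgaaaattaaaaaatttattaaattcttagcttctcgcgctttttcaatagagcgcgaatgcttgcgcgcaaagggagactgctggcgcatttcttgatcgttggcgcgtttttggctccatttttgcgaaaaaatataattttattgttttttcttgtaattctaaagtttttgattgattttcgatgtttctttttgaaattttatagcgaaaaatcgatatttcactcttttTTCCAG
par-5/M117.3: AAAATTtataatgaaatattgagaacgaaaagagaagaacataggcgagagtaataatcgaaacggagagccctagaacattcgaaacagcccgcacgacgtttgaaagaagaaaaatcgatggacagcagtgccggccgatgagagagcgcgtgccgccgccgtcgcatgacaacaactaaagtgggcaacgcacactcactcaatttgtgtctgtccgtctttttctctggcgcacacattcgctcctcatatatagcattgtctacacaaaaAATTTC

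The stretch between dnsn-1 and C24H12.4 lies at chrII:410933-411221 and ends in TTCCAG before the start of C24H12.4, so that this annotated start follows AG. That between par-5, which encodes a 14-3-3 protein, and M117.3 lies at chrIV:11821925-11822205, and its centre held GAGAGA. The peak of dnsn-1 and C24H12.4 scored 25.1 and ranked 61 in replicate 1 and 5090 in replicate 2. The peak of par-5 and M117.3 scored 19.9 and ranked 147 in replicate 1 and 818 in replicate 2. GC made up 31.1% of the letters of the dnsn-1 stretch and 45.2% of those of the par-5 stretch.

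**Figure D2:**
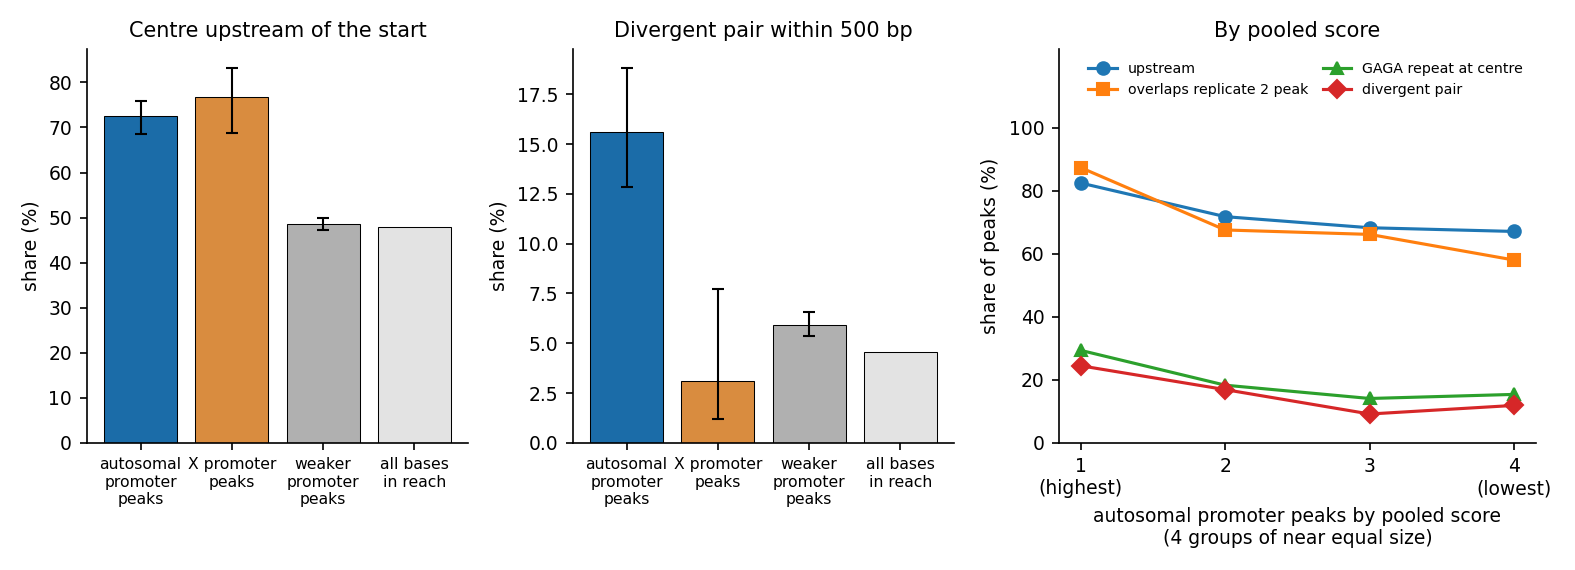
Share of peaks (%) with the centre upstream of the nearest start (left) and with starts of a divergent pair within 500 bp (middle) for the 570 autosomal promoter peaks, 129 X promoter peaks and 6106 weaker autosomal promoter peaks, with Wilson 95% intervals, beside the share of all autosomal bases within 500 bp of a start. Right, shares (%) within 4 groups of near equal size of the autosomal promoter peaks by pooled score. Upstream centres stand at 72.5% in the strong autosomal peaks and 48.6% in the weaker ones, divergent pairs at 15.6% and 5.93%, and all 4 shares at the right are largest in the highest-scoring group.

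These features varied with the score that chose the peaks. In the 143 peaks of highest score, 82.5% of centres were upstream, 24.5% were at divergent pairs and 29.4% held GAGAGA. In the next group, of 142, these shares were 71.8%, 16.9% and 18.3%, and in the 142 after them 68.3%, 9.15% and 14.1%. In the 143 of lowest score they were 67.1%, 11.9% and 15.4%. A peak of replicate 2 was found at 87.4%, 67.6%, 66.2% and 58.0% of the same groups. The distance to the start did not follow the score (Spearman's rho 0.0254 and Pearson's r -0.0205 across 570 peaks, as a description).

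The GAGA repeat marked the centres of these promoters. GAGAGA, searched on both strands, lay within 50 bp of 110 centres (19.3%, 16.3 to 22.7), against 6.32% of windows of the same length centred 500 bp upstream along the gene and 5.44% of those 500 bp downstream (exact McNemar test against the upstream window, adjusted p = 7.46e-10 over 8 motifs). Windows of this length centred 124 bp upstream of every autosomal start held it in 8.87%. This is a single position, whereas the peak centres spread over 500 bp to either side of the start. The windows at all starts are thus not matched to the peaks by position. Weaker promoter peaks held it in 8.60% (odds ratio 2.54, Fisher's exact adjusted p = 3.77e-13). The 993 autosomal peaks among the 2000 strongest that are away from starts held it in 20.5% (odds ratio 0.925, Fisher's exact adjusted p = 1), a difference that did not pass the threshold. The word stood on the strand of the gene alone in 49 peaks and on the opposite strand alone in 54. It lay at 33.3% of the 63 peaks of the IDR set (22.9 to 45.6) and at 17.6% of the other 507, and at 14.6% of divergent peaks, against 20.2% of the others, shares that were not tested. The 63 peaks of the IDR set are also those of highest pooled score, so their contrast with the other 507 is one of score.

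TGCGTCTC lay at 42 centres (7.37%, 5.50 to 9.81), against 0.877% of upstream and 0 of the 570 downstream windows (Wilson upper limit 0.669%; exact McNemar adjusted p = 9.83e-08). Weaker promoter peaks held it in 1.64% (odds ratio 4.78, Fisher's exact adjusted p = 7.65e-13), the windows at all starts in 1.58%, and the other strong autosomal peaks in 5.14% (Fisher's exact adjusted p = 0.323). The letters TCTC are common to it and to the reverse complement of GAGAGA, so the motifs can overlap. It was found at 40 of the 413 upstream centres (9.69%) and at 2 of the 157 downstream ones (1.27%), and GAGAGA at 21.8% and 12.7% in the same order.

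The forkhead core, ATAAACA or GTAAACA on either strand, lay at 41 centres (7.19%, 5.35 to 9.61), against 2.28% of the upstream and 2.81% of the downstream windows (exact McNemar adjusted p = 0.000340). The share was 4.21% at weaker promoter peaks (two-sided Fisher's exact adjusted p = 0.00521 with an odds ratio of 1.76), 5.01% in the windows at all starts and 7.45% at the other strong autosomal peaks (Fisher's exact adjusted p = 1). With the 2000 strongest peaks of replicate 1 alone, the core stood at 5.77% of promoter centres and in 3.42% of their upstream windows, which was not past the threshold (exact McNemar p = 0.0789). Both GAGAGA and the forkhead core occurred at 12 of the 570 centres and neither at 431, so most of these promoters showed neither sequence within 50 bp of the centre.

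Runs of 8 T, TTTTTTTT, were less frequent at the centres, with 7.54% against 12.6% of the upstream windows (exact McNemar adjusted p = 0.00845), and stood in 14.04% of the windows at all starts. The other 4 motifs were not past the threshold against the upstream windows. CACGTG stood at 2.28% of the centres and in 2.06% of the windows at all starts. GCGGGAA stood at 0.877% of the centres and in 1.21% of those windows, and the AP-1 site (TGACTCA or TGAGTCA) at 1.23% and in 1.42%. TGATAA had 6.49% at the centres, against 9.27% at weaker promoter peaks (Fisher's exact adjusted p = 0.0530) and 11.8% in the windows at all starts. Absence of a motif says only that these letters are not in the window. None of the 8 motifs differed past the threshold between the autosomal and the X promoter peaks. Base composition moved with these shares: the median GC content was 42.6% at the centres, against 34.7% in the upstream and 37.6% in the downstream windows, and its part in the motif shares was not tested.

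**Figure D3:**
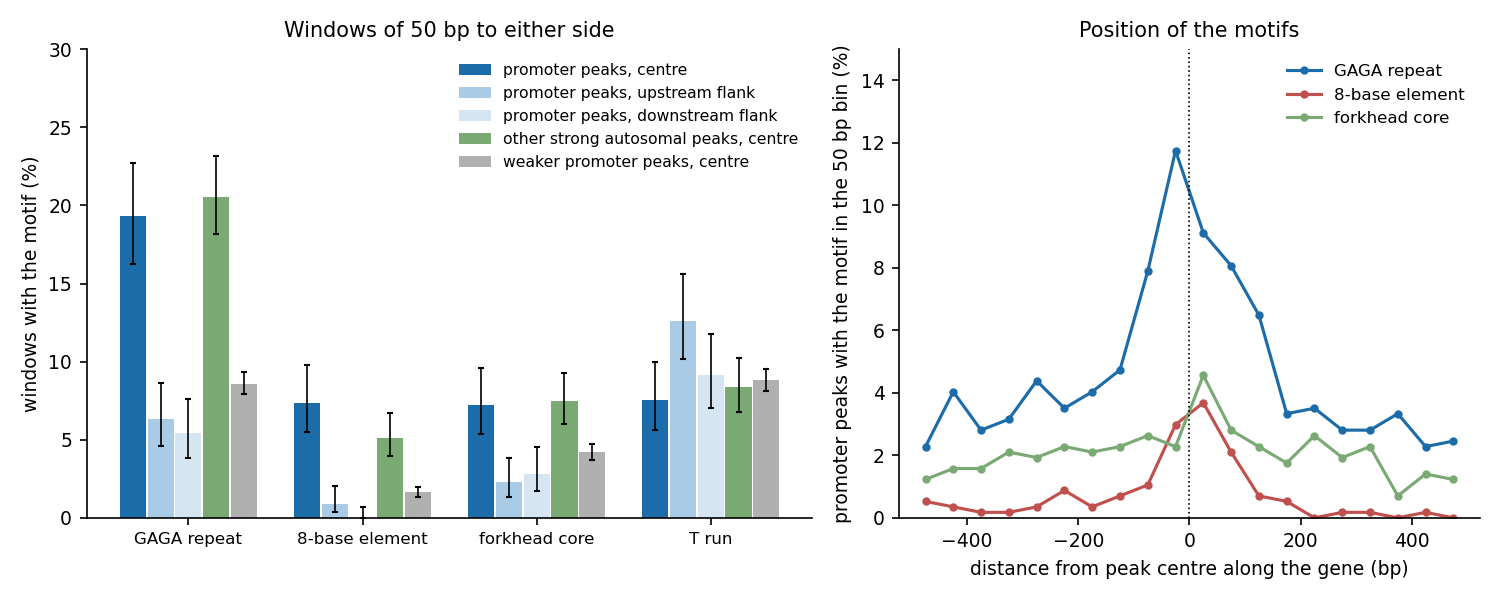
Left, share (%) of windows of 50 bp to either side that hold the GAGA repeat, the 8-base element that starts with TGCG, the forkhead core and the T run, on either strand, at the centres and flanks of the 570 autosomal promoter peaks and at the centres of 993 other strong autosomal peaks and 6106 weaker promoter peaks, with Wilson 95% intervals. Right, share (%) of the 570 peaks with a motif in each 50 bp bin along the gene around the centre (bp, negative is upstream). The GAGA repeat reaches 11.8% in the bin just upstream of the centre and stays under 5% beyond 150 bp.

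Cytosolic ribosomal and translation genes were reached at shares above the background. Lists were formed from gene name patterns. Each count of nearest genes stands beside the 3.22% of all autosomal genes, with no test of the list. Counts of genes with a start within 500 bp stand beside 3.81%. Of 80 cytosolic ribosomal protein genes, 14 (17.5%) were nearest to a strong promoter peak, and 20 (25%) had a start within 500 bp of one. The name pattern left out rpl-36.A, and with it, an addition made after values were seen, 21 of 81 (25.9%) had a start in reach. After rpl-3, rpl-15 and rpl-12, these included rps-1 at 26.9, rps-15 at 22.8 and rpl-35 at 21.1. In replicate 2, rpl-3, rpl-12 and rps-1 ranked 54, 42 and 224, whereas rpl-15 ranked 2979 and rps-15 3921. The rpl-35 peak had no counterpart there. Of ribosomal genes with lower scores, rpl-23 ranked 7988 and rps-28 5674 in replicate 2, and rps-14 had no counterpart. GAGAGA stood at 3 of the 15 peaks of these 14 genes, and the forkhead core at none. Over all 570 peaks the shares were 19.3% and 7.19%, so these counts do not set the ribosomal genes apart. Among 39 genes of translation factors, 6 (15.4%) were nearest. iff-2 (WBGene00002065), which encodes the factor eIF5A, had a peak 38 bp upstream that scored 30.4 and ranked 48 in replicate 1 and 247 in replicate 2. eef-2 (WBGene00001167), an elongation factor gene, had one 3 bp upstream at 16.7, and eif-3.E (WBGene00001228), of initiation factor 3, one 214 bp upstream at 14.6. Neither of these last peaks had a counterpart in replicate 2. Of 70 mitochondrial ribosomal protein genes, 1 (1.43%), mrps-7, was a nearest gene. Of 31 aminoacyl-tRNA synthetase genes, 1 (3.23%), aars-1, was a nearest gene, a share at the background.

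Genes of the proteasome and of protein folding were also reached. Of 33 proteasome genes, 4 (12.1%) were nearest. rpn-3 stood at 31.3, rpn-6.1 (WBGene00004462), of the regulatory particle, at 16.1 with no counterpart in replicate 2, and pbs-2 (WBGene00003948), of the catalytic core, at 12.6 with ranks of 2029 in replicate 1 and 20029 in replicate 2. Of 55 chaperone genes, 5 (9.09%) were nearest and 9 (16.4%) had a start in reach. hsp-1 (WBGene00002005), the constitutive Hsp70, had a peak 374 bp upstream that scored 18.6 and held GAGAGA, and dnj-20 (WBGene00001038) one at 15.02. hsp-110, hsp-90, cct-1 and cct-8 were reached only as the second gene of a peak.

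The respiratory chain list had 6 nearest genes of 40 (15%). Its name pattern left out 25 autosomal genes of NADH dehydrogenase named ndua to nduv, and with these, an addition made after values were seen, the count was 7 of 65 (10.8%). Of the added genes, ndua-7 was a nearest gene at 13.1, and ndua-8 had its start 229 bp from a divergent peak that scored 23.1. cox-5B (WBGene00000371) and cox-5A (WBGene00012553), of cytochrome c oxidase, had peaks 46 and 296 bp upstream with scores of 28.3 and 25.5. Both ranked far higher in replicate 1 (99 and 173) than in replicate 2 (7328 and 4011). nuo-1 (WBGene00003831), of NADH dehydrogenase, had one at 20.1 in a divergent promoter with rpl-36.A, and no counterpart in replicate 2. The RNA polymerase and Mediator list had 4 of 61 (6.56%), namely mdt-18 (WBGene00007018) at 20.8, mdt-26 (WBGene00016115) at 19.1, taf-4 (WBGene00006385) at 16.1 and rpb-3 at 12.5. Of these, taf-4 encodes a subunit of neither RNA polymerase nor Mediator. Splicing genes had 2 of 46 (4.35%), snrp-3 and snr-6, with 13.9 and 11.9. Replication and cell cycle genes had 2 of 44 (4.55%), cdk-7 and pcn-1 (WBGene00003955), which encodes the replication clamp PCNA.

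Some regulators of development were nearest genes. Of 10 autosomal heterochronic genes, which time cell fates across larval stages, 3 (30%) were nearest to a strong promoter peak, and GAGAGA stood at all 3 centres. Its share over all 570 centres was 19.3%, and 3 peaks are too few for a comparison. The RNA-binding protein gene lin-28 (WBGene00003014) had scores of 31.5 in the pooled list, 14.3 in replicate 1 (rank 264) and 16.8 in replicate 2 (rank 18). lin-66 (WBGene00001562) had 26.3, 14.9 (rank 231) and 8.52 (rank 522) in the same order. blmp-1 (WBGene00003847), a zinc finger factor gene, had 12.5, 5.56 (rank 8096) and 5.90 (rank 2663), with its centre 124 bp upstream. The first 2 thus ranked high in each replicate and blmp-1 in neither.

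Of 11 autosomal forkhead genes, daf-16 (WBGene00000912) alone was nearest, the FOXO factor gene of insulin signalling. Its peak lay 493 bp upstream of a start at chromosome I, 10749860 to 10750149, scored 16.9, ranked 9341 in replicate 1 and 131 in replicate 2, and held no forkhead core at the centre. The homeobox list had 5 of 62 (8.06%), among them ceh-38, ceh-88 (13.9), ceh-12 and ceh-34, and lim-9 (13.6), which encodes a LIM-domain protein and no homeodomain. The kinesin list had 2 of 26, klp-11 (WBGene00002222), which encodes a subunit of the ciliary motor kinesin-II, and unc-116 (WBGene00006840), the conventional kinesin heavy chain. The klp-11 peak was intronic, 315 bp downstream of a start, with a score of 15.1 and ranks of 1886 in replicate 1 and 9489 in replicate 2.

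Of the 8 genes of the DREAM complex, all autosomal, 2 were nearest genes, lin-9 and efl-1, beside 3.22% of all autosomal genes. With lin-53 and lin-54, 4 had a start within 500 bp, beside 3.81%. dpl-1, lin-35, lin-37 and lin-52 were not reached. The list was formed after the values of these genes were seen and is therefore no support for a theme. efl-1 encodes an E2F factor, and its peak scored 16.5.

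Other lists had shares near or below the background. Chemoreceptor genes, the largest family, had 13 nearest genes of 1275 (1.02%), led by srh-269 (18.2), srsx-5 (15.6) and srh-179 (14.4). Nuclear hormone receptor genes had 3 of 247 (1.21%), nhr-66 (17.8), nhr-158 (15.1) and nhr-41 (12.6), and the nhr-158 peak had no counterpart in either replicate. The collagen list had 1 of 152 (0.658%), and that gene, rol-3, encodes a receptor tyrosine kinase. Histone genes had 1 of 77 (1.30%), his-37 at 33.2. Neuropeptide and insulin genes had 3 of 106 (2.83%), nlp-82 (14.98), nlp-52 (13.7) and nlp-48. Cilium genes had 2 of 63 (3.17%), che-10 (13.3), which encodes rootletin, and osm-12 (12.1), a gene of the BBSome, and neither peak had a counterpart in replicate 2. The vacuolar ATPase list had 0 of 18. Ubiquitin enzymes had 1 of 31 (3.23%) and Rab and Arf GTPases 1 of 26 (3.85%).

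**Figure D4:**
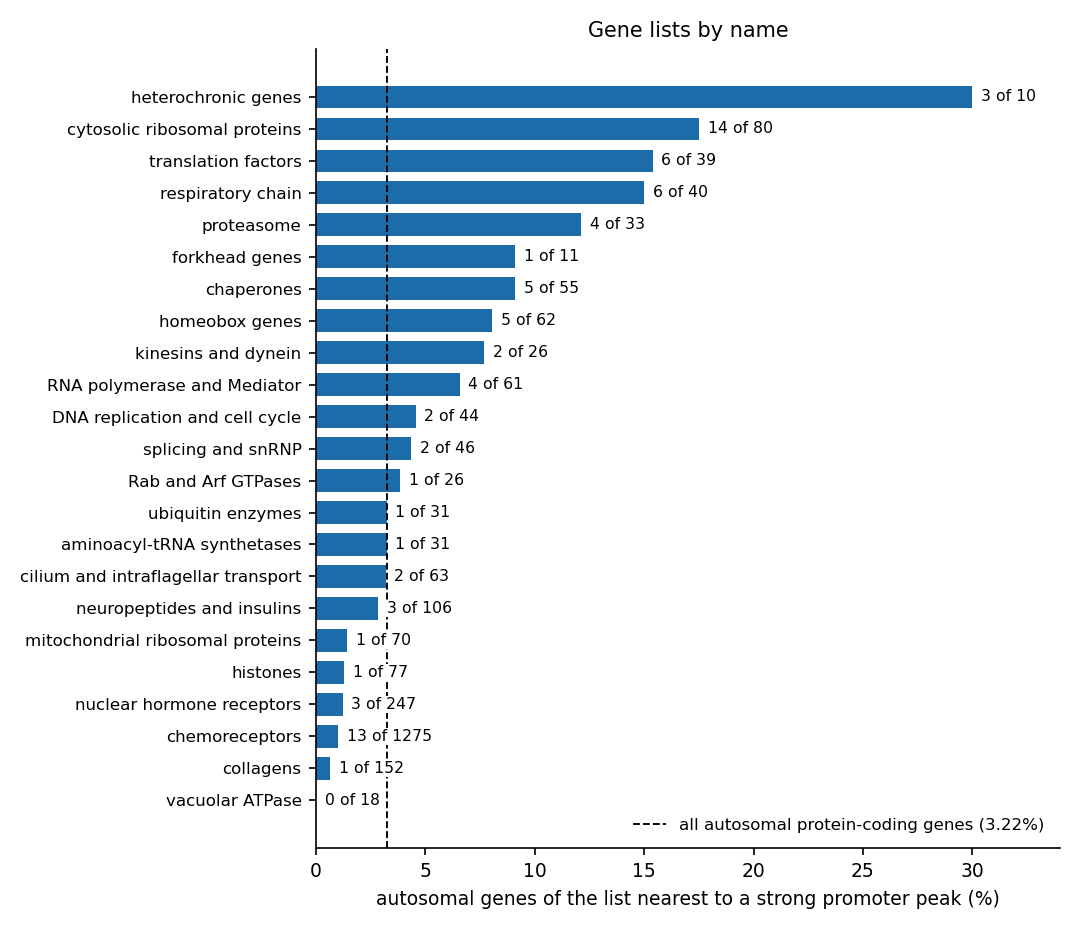
Share (%) of the autosomal genes of each name-based list whose start is the nearest to a strong promoter peak, with the counts beside the bars; the dashed line marks the 3.22% of all autosomal protein-coding genes. The heterochronic, cytosolic ribosomal, translation factor, respiratory chain and proteasome lists stand above 10%, and the mitochondrial ribosomal, histone, nuclear receptor, chemoreceptor, collagen and vacuolar ATPase lists below 2%; the single gene of the collagen list is rol-3, which encodes no collagen.

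The neighbourhood of the nearest genes was described in the same way, without a test. An opposite-strand gene lay within 1000 bp upstream of 26.7% of the 555 nearest genes (23.2 to 30.5), against 17.5% of the genes nearest to weaker promoter peaks and 19.4% of all autosomal genes. A same-strand gene ending within 500 bp upstream, the arrangement of genes inside operons, was found at 15.9% (13.1 to 19.1), against 19.01% and 19.4%.

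Most of these regions had a peak in each replicate. Of the 570 peaks, 515 (90.4%) overlapped a peak of replicate 1 by at least 1 bp and 398 (69.8%, 65.9 to 73.4) one of replicate 2. Both replicates had a peak at 355 (62.3%) and neither had one at 12. The 993 other strong autosomal peaks had similar shares: 87.5% overlapped a peak of replicate 1, 72.1% one of replicate 2 and 61.4% one of each. Of the weaker promoter peaks, 15.1% overlapped one of each. Among the 2000 strongest of replicate 1 were 300 (52.6%), and among those of replicate 2 were 169 (29.6%). The 63 of highest pooled score (11.1%) belonged to the IDR set. For the other strong autosomal peaks these shares were 45.5%, 27.4% and 8.56%. The replicate and pooled lists hold peaks together with background, so an entry of low rank can be background. The pooled list was made from both replicates, so these overlaps are no independent test. Across the 355 peaks found in each, the replicate scores had a Spearman's rho of 0.0638 and a Pearson's r of 0.185, as a description over peaks that the pooled score had already chosen. Chosen by the same rule from replicate 1 alone, 555 peaks reached 541 genes, of which 285 were shared with the pooled rule (52.7% of them and 51.4% of the 555). Replicate 2 alone gave 485 peaks at 476 genes, with 171 shared (35.9% and 30.8%). Of the 84 nearest genes that both replicates gave on their own, 77 were among the 555.

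**Figure D5:**
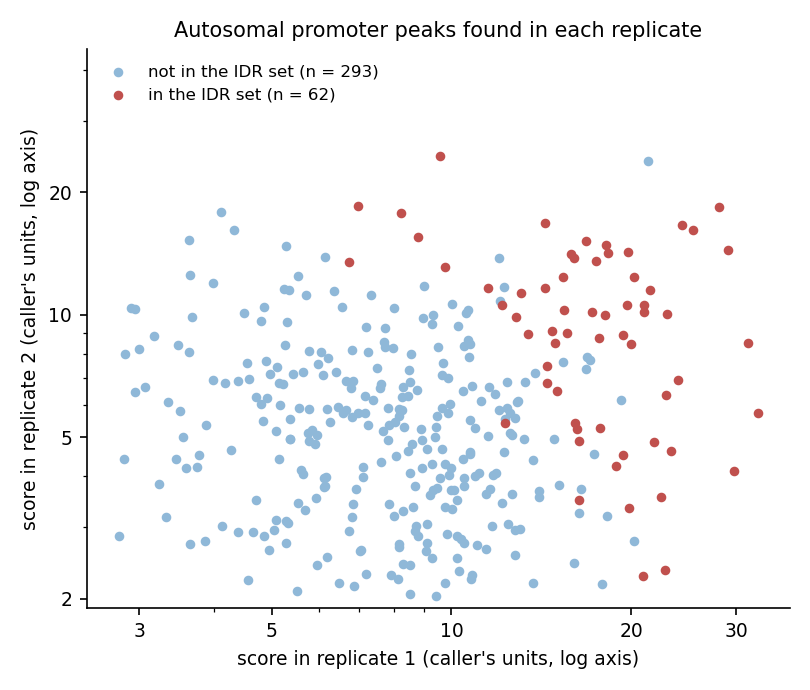
Score in replicate 1 against score in replicate 2 (the caller's units, log axes) for the 355 autosomal promoter peaks that overlap a peak of each replicate, with the 62 that belong to the IDR set in red and the other 293 in blue. Spearman's rho is 0.0638 across these peaks, which the pooled score had chosen. The peaks in red are those of highest pooled score.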

How the data were processed

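FKH-2 ChIP-seq was analysed from the deposited ce11 peak lists of 2 replicates, their pooled list and the IDR set. Per the deposited text files, the authors derived the replicate and pooled lists, peaks with background as input for IDR, from alignments and a further file, which also enters their control-normalized signal, and the IDR set from the pooled and replicate lists. The deposited lists hold a score of unstated scale and a −log10 q-value. Aligner, caller, versions, the IDR threshold and read depth are not given in the sources used here. The ce10 lists were not used here.

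Gene models were Ensembl release 115 (WBcel235) and letters the matching RefSeq sequence. The peak centre is the deposited point. Nearest starts, divergent pairs and motif windows (50 bp to either side) were computed with Python 3.11.15, pandas 2.3.3, numpy 2.4.6 and scipy 1.17.1, two-sided, with Benjamini-Hochberg adjustment over the 4 share tests or the 8 motifs per comparison and a threshold of 0.05. A divergent pair needed starts on opposite strands within 500 bp of the centre, the minus-strand start on the left. Intervals of medians are binomial order-statistic intervals. The peaks and gene lists were chosen with earlier results of these data known. Named genes were those of the 12 highest-scoring peaks found in each replicate, of the 6 highest divergent peaks, the 3 highest of each list with at least 2 genes, the heterochronic and forkhead genes, and 4 genes with 2 peaks. Other names, and the comparisons with X, were added after values were seen. The assignment and tests were tested on simulated starts, peaks and sequences. Alternatives changed the peak number, the order of the X filter, windows, starts and replicates. The sequence of 1 divergent promoter chosen by the same rule is not reported here.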

Additional observations from a re-analysis of the deposited data

How the results depend on the processing

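The number of peaks follows its thresholds: it was 301 with the 1000 strongest peaks, 1285 with the 5000 strongest and 363 within 250 bp of a start, with a median distance of 114 bp within 250 bp and 297.5 bp within 1000 bp. With the 2000 strongest peaks not on X, another reading of the rule, there were 707, of which 68.2% were upstream and 14.99% divergent. The upstream and divergent shares kept their direction under all alternatives run, with unadjusted Fisher's exact p-values of at most 0.0399, that of the divergent share without replicate 1. Taking 1 replicate alone gave upstream shares of 60.2% to 68.5%, divergent shares of 8.66% to 16.04%, GAGAGA at 14.2% to 16.6% and the forkhead core at 5.77% to 7.42% of centres. The core was past the threshold without replicate 1 and not without replicate 2 (unadjusted exact McNemar p = 0.0789), and the cause was not tested. Against the 570 next-ranked promoter peaks, added after values were seen, upstream was 72.5% against 51.2% (Fisher's exact p = 1.95e-13) and divergent 15.6% against 9.30% (p = 0.00162). Without the divergent peaks, also added later, upstream was 69.6% against 47.6%. No paired analysis was possible because the study holds a single group. Unknown read depth limits how far low ranks in replicate 2 can be read.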
